A study of Mus musculus with 19 samples.

Results

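The 9 interferon-stimulated genes Irf7, Isg15, Usp18, Ifit1, Ifit2, Ifit3, Oasl2, Rsad2 and Mx1 were taken by symbol from the gene count tables and followed over all 19 libraries. They are 9 of the 16842 genes listed in any of 3 library sets, and all 9 were listed in every set. The study asked how mutant Asxl1, a chromatin regulator altered in clonal hematopoiesis and chronic myelomonocytic leukemia, acts on heterochromatin, and the genes are read here as a possible output of sensing nucleic acids made from transposable elements (TEs). Total RNA of mouse bone marrow cells was sequenced, and the labels call each sample MT (Asxl1 mutant) or WT (wild type). Cd11b-bearing myeloid cells came from mice aged 4 months, called young here (3 MT libraries, 4 WT), and from mice aged 18 months, called old (3 MT, 3 WT). LK cells, progenitors that lack lineage markers and carry c-Kit, came from mice aged 18 months (3 MT, 3 WT). The labels give no allele, promoter, Cre driver, strain or sex, and they do not say whether replicates came from separate mice. The p-values therefore measure the spread between these libraries, which may be technical.

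Type I interferons bind a receptor of the chains Ifnar1 and Ifnar2, and the signal ends at the interferon-stimulated response element in target promoters. Cells make interferon when cytosolic or endosomal sensors meet double-stranded RNA or DNA, including RNA from derepressed TEs. Among the 9 genes, Irf7 is a transcription factor that amplifies interferon production, Isg15 is a ubiquitin-like modifier, and Usp18 removes Isg15 from proteins and restrains receptor signalling. Ifit1, Ifit2 and Ifit3 are RNA-binding or partner proteins that limit translation of foreign RNA, Oasl2 belongs to the oligoadenylate synthetase-like family, Rsad2 (viperin) is a radical enzyme that makes a chain-terminating nucleotide, and Mx1 is a dynamin-like GTPase.

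The core of the response element, GAAANNGAA, was searched on both strands in the 300 bases from 250 before to 50 after each RefSeq start site (build GRCm38.p6). Of the 9 genes, 7 had a promoter in that table, and 4 of these held the core: Isg15, Ifit1, Ifit3 and Rsad2. Of all 32851 promoters searched, 8.56% held it, and of all 27025 genes searched, 9.76% held it in at least 1 promoter. The windows with the core are printed because interferon-stimulated genes are known to answer interferon through this element. A match of letters does not show that a site works, and other spellings of the element were not searched. Each is given 5′ to 3′ along the gene's own strand, with the matching bases in capitals.
Isg15 (chr4:156200851-156200921, minus strand): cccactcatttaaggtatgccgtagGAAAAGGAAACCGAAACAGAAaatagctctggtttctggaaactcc
Ifit1 (chr19:34640755-34640838, plus strand): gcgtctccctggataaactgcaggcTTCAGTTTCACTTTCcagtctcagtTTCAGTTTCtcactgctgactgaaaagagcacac
Ifit3 (chr19:34583349-34583460, plus strand): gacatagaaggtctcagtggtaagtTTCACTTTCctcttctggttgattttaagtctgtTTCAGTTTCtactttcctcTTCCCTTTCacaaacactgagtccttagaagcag
Rsad2 (chr12:26456538-26456596, minus strand): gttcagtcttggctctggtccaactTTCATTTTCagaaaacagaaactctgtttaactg
Isg15 held 3 overlapping copies read forward, Ifit1 and Ifit3 held 3 copies each on the reverse strand, and Rsad2 held 1 on the reverse strand. Ifit2, with 2 promoters in the table, Irf7 and Oasl2 held none of these letters in their windows.

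The Ifit genes lie near each other on chromosome 19 of build GRCm38, with Ifit2 at 34550694 to 34576419, Ifit3 at 34583531 to 34588731 and Ifit1 at 34640871 to 34650009, all on the plus strand in the GENCODE M21 annotation. The other members lie on separate chromosomes: Isg15 on 4, Oasl2 on 5, Usp18 on 6, Irf7 on 7, Rsad2 on 12 and Mx1 on 16. Irf7 overlaps Phrf1 by 45 bases on the opposite strand, and Usp18 overlaps the noncoding gene Gm44148 by 15715 bases, also on the opposite strand. The libraries were made with a directional kit, but whether counting used the strand is not given in the sources used here, so reads of these pairs may have been mixed. Of the close relatives, Mx2 and Oasl1 were listed, whereas Ifit3b, Ifit1bl1 and Ifit1bl2 were not. How reads shared with those Ifit relatives were counted is not known.

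Total gene counts ranged from 26251822 to 68260809 per library. Levels below are in CPM (counts in a library scaled to 1000000 counts), computed over the 14246 genes listed in all 3 sets. Itgam, which encodes Cd11b, was at 1481 to 3465 CPM in Cd11b libraries and 45.3 to 85.7 in LK libraries, and Kit was at 170.2 to 220 CPM in LK libraries and 62.2 to 115.1 in Cd11b libraries. Asxl1 transcript was at 92.5 to 97.4 CPM in MT and 106.4 to 117.2 in WT LK libraries, 201.8 to 204.8 and 204.3 to 236 in young Cd11b, and 284.9 to 297 and 278.8 to 305.7 in old Cd11b libraries, and counts per gene do not check the mutation itself. In the young set, MT replicate 3 and WT replicate 4 had Ddx3y (Y-linked) at 104.4 and 109.4 CPM and Xist at 0 and 0.307, whereas the other 5 young libraries had Xist at 1691 to 1981 CPM. All 18-month libraries had Ddx3y at 50.4 to 81.6 CPM. Replicates 2 and 3 of each 18-month group resembled each other more than replicate 1, with a chi-square per degree of freedom of 2.92 to 6.39 against 13.7 to 44.6.

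By WT group means, each of the 9 genes was highest in old Cd11b cells, lower in young Cd11b cells and lowest in LK cells; the tests follow. In the WT groups Irf7 averaged 80.5 ± 4.97 CPM (SD, n = 3) in old Cd11b, 47.5 ± 6.26 (n = 4) in young Cd11b and 11.7 ± 0.709 (n = 3) in LK libraries. Oasl2 averaged 94.9 ± 32.0, 50.8 ± 7.37 and 5.14 ± 0.773 CPM in the same groups, and Isg15 averaged 11.4 ± 0.102, 5.81 ± 1.06 and 2.99 ± 0.750. The mean levels of Rsad2 and Mx1 in old and young Cd11b WT libraries lay within the spread of those libraries.

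**Figure D1:**
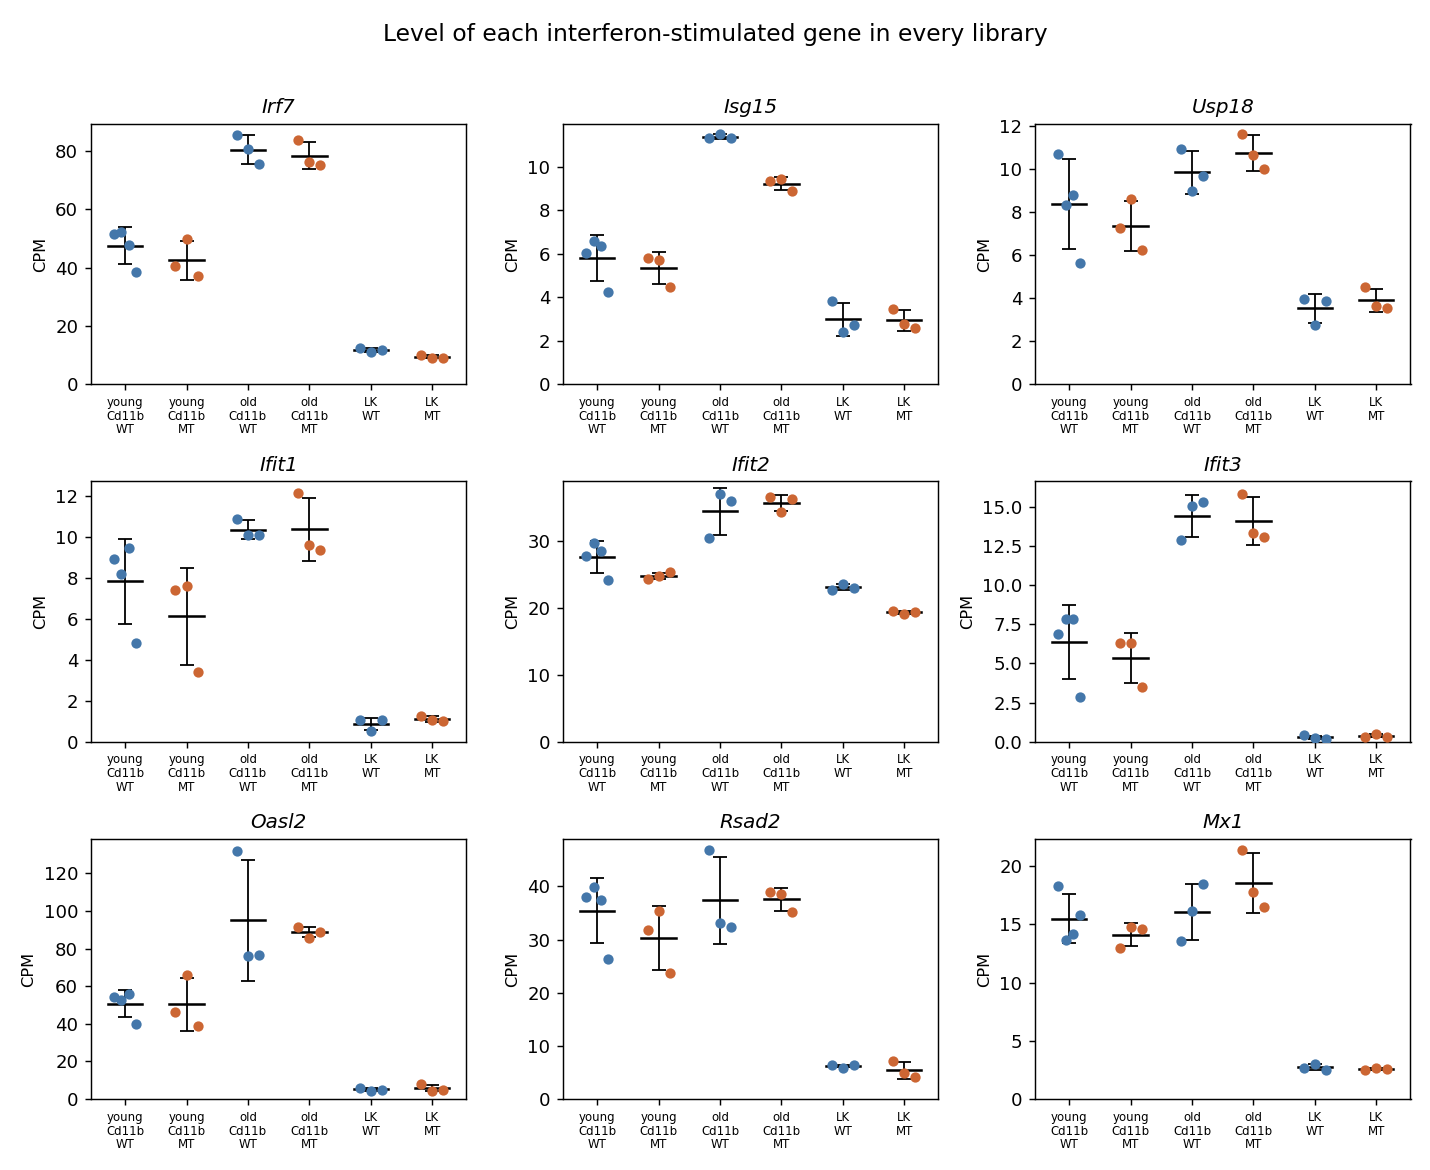
CPM of each gene (vertical axis, linear from 0) in every library of the 6 groups. Blue points are WT and orange points MT libraries, bars are the group mean with its SD, and within a group the points run from replicate 1 on the left. All 9 genes sit lowest in LK libraries, and the rightmost WT and MT points of the young groups, WT replicate 4 and MT replicate 3, are the lowest of their groups for most genes.

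Per kilobase of exon, so that genes can be compared, Irf7 led in old Cd11b WT libraries at 21.3 ± 1.32 CPM per kb. Isg15 (15.1 ± 0.135) and Oasl2 (14.9 ± 5.02) followed and did not differ beyond their spread. Ifit2 (8.76 ± 0.889), Rsad2 (8.62 ± 1.88) and Ifit3 (8.27 ± 0.767 CPM per kb) formed a middle group whose spreads overlapped. Mx1 (4.24 ± 0.641), Ifit1 (3.90 ± 0.172) and Usp18 (3.53 ± 0.356) were lowest, and the ranges of mean ± SD of neighbours in that order overlapped. In young WT libraries Irf7 also led, at 12.6 ± 1.66 CPM per kb, and Ifit1 was lowest at 2.95 ± 0.780. In LK WT libraries the order was different: Ifit2 led at 5.86 ± 0.113 CPM per kb, Isg15 followed at 3.95 ± 0.992, and Ifit3 was last at 0.158 ± 0.0647. The annotation joins the Irf7 exons into 1 block of 3776 bases, so its value per kb depends on that annotation.

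LK and Cd11b cells were compared among WT libraries at 18 months, and all 9 genes were lower in LK cells. The depth of the difference varied between genes, from Ifit3 to Ifit2 of the same cluster. Ifit3 was at 12.9, 15.1 and 15.3 CPM in the 3 old Cd11b WT libraries and at 0.395, 0.261 and 0.171 in the 3 LK WT libraries, where it had 7 to 23 counts. That is 53.9-fold lower in LK cells (log2 fold change -5.75 ± 0.21 SE, adjusted p = 2.19e-08, edgeR quasi-likelihood test with Benjamini-Hochberg adjustment over all genes tested, as for every adjusted p here). Ifit2 was at 30.4, 37.0 and 35.9 CPM in Cd11b and 22.6, 23.5 and 23.0 CPM in LK libraries, a change of -0.67 ± 0.08 (adjusted p = 4.85e-05). The groups did not overlap for either gene. Oasl2 was 19.8-fold lower and Ifit1 12.8-fold lower, Irf7 7.39-fold, Rsad2 6.44-fold, Mx1 6.28-fold, Isg15 4.08-fold and Usp18 3.01-fold. Of all 13710 genes tested, 41.7% were called lower and 45.1% higher at an adjusted p under 0.05, so a call alone sets none of the 9 apart from other genes. The median log2 fold change was -2.69 over the 9 genes and 0.08 over all genes tested.

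Other interferon pathway genes, a list of 133 genes in classes from ligands to targets and without the 9, were mostly lower in LK cells too: 83 were called lower and 15 higher of 106 tested. The receptor class had 5 of 5 called lower. Ddx58 (RIG-I, a sensor of double-stranded RNA) was lower, at a log2 fold change of -3.21 (adjusted p = 5.44e-10), as were Slfn5 (-4.98), Samd9l (-4.39), Ptpn6 (-2.58) and Sp140 (-2.91), each with an adjusted p under 0.05 in the edgeR test. Isg20 (an exonuclease, 1.54), Lgals3bp (1.52), Irf8 (1.07), Lgals9 (0.69) and Tgtp2 (1.78) were higher in LK cells. Of 11 ligand genes Ifng alone was listed, at 0.0295 to 0.0857 CPM in old Cd11b WT and 0.430 to 1.03 CPM in LK WT libraries. Of 20 nucleic acid sensor genes tested, 15 were called lower and 4 higher in LK cells. In bulk libraries such as these, fewer cells of a type and less RNA per cell cannot be told apart. The 12 neutrophil markers summed to 144700 to 175700 CPM in old Cd11b WT and 10030 to 11680 CPM in LK WT libraries, and their part in the difference was not tested.

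Between old and young WT Cd11b cells, Isg15, Ifit2, Ifit3, Irf7 and Oasl2 were called higher in old cells, and none of the 9 was called lower. Isg15 was at 11.4, 11.5 and 11.3 CPM in the old and 6.02, 6.59, 6.35 and 4.26 CPM in the young WT libraries, a log2 change of 0.95 ± 0.14 (adjusted p = 0.000105). Ifit3 had the largest estimate of the 9, 1.15 ± 0.28 (adjusted p = 0.00475), from 6.91, 7.82, 7.85 and 2.88 CPM in young libraries. Irf7 was at 85.4, 80.5 and 75.5 CPM in old and 51.6, 52.2, 47.6 and 38.6 CPM in young libraries (0.74 ± 0.10, adjusted p = 5.32e-05). The old and young libraries did not overlap for these genes.

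Oasl2 was higher by 0.88 ± 0.21 and Ifit2 by 0.30 ± 0.09 on the log2 scale. Without old WT replicate 2 the change of Ifit2 was 0.25 and no longer called (adjusted p = 0.0575, edgeR). The Oasl2 mean of old WT libraries rested in part on replicate 1, at 131.9 CPM against 76.3 and 76.7 in the others, and without it the change was 0.58. Ifit1 (0.38 ± 0.19), Usp18 (0.22 ± 0.18), Rsad2 (0.06 ± 0.17) and Mx1 (0.03 ± 0.13) were not called. Of all 13719 genes tested, 36.1% were called higher and 36.9% lower, and the median was 0.38 over the 9 genes and -0.02 over all genes. The other interferon pathway genes had 58 called higher and 22 lower of 106, among them Slfn1 (1.62), Sp140 (1.23), Il10rb (1.04), Ptpn6 (1.04) and Sp110 (0.82) higher and Irf8 (-1.24), Gbp4 (-1.88), Ifng (-3.73), Pyhin1 (-0.61) and Tor1aip2 (-0.48) lower.

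Age was not the sole difference between these WT sets. The 7SK RNA, counted with the TEs, was at 6124 to 11880 CPM (here of all gene counts) in young libraries and 4.83 to 5.37 in old Cd11b libraries. Young WT libraries were mixed for Xist and Ddx3y, whereas old ones all had Ddx3y. With a term for that split, the young side rested on WT replicate 4, the 1 young WT library with Ddx3y. That library was the lowest young WT library for 8 of the 9 genes. The log2 changes were then 2.31 for Ifit3, 1.4 for Isg15, 1.23 for Oasl2, 1.08 for Ifit1 and 1.04 for Irf7. Usp18 was at 0.79, Ifit2 at 0.49, Rsad2 at 0.48 and Mx1 at 0. With 1 young library behind them, these are given as sizes only, and the calls of that fit are not used here. The 9 markers of plasmacytoid dendritic cells, known as strong makers of type I interferon with high Irf7, summed to 162.7 to 249.4 CPM in young WT and 41.6 to 45.4 CPM in old WT libraries, where Klk1 was at 0. The summed neutrophil markers were 49730 to 61440 CPM in young WT and 144700 to 175700 in old WT libraries. Age cannot be told apart from the library set, and the part of cell types in the change was not tested.

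**Figure D2:**
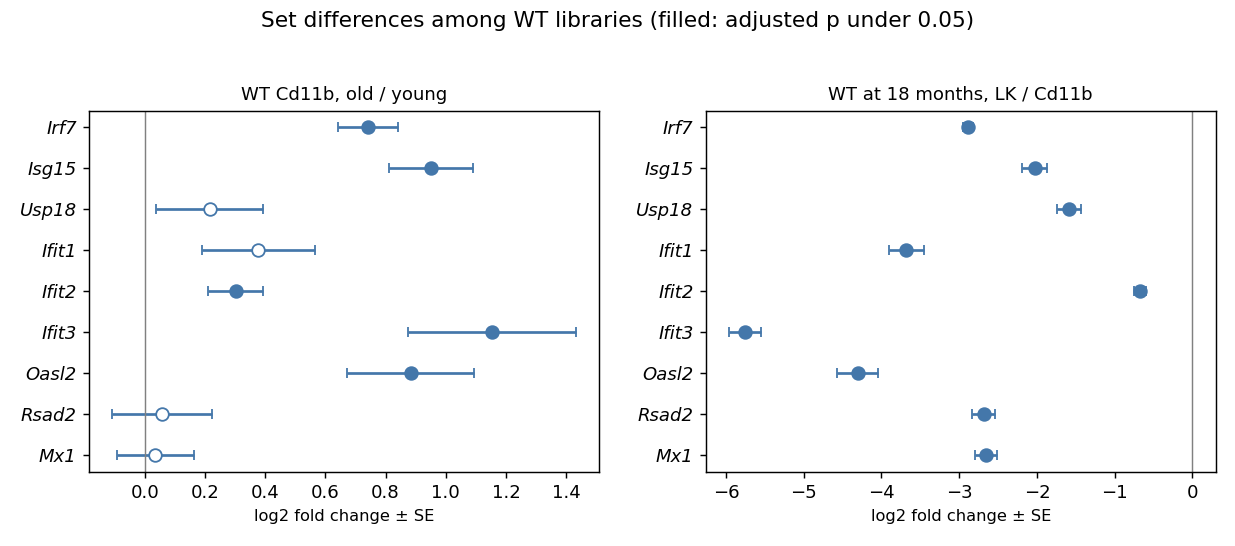
Log2 fold change with its SE (horizontal axis) of each gene among WT libraries, old over young Cd11b on the left and LK over Cd11b at 18 months on the right. Filled points have an adjusted p under 0.05. The 5 called genes on the left lie between 0.30 and 1.15, and all 9 on the right lie between -5.75 and -0.67.

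In young Cd11b cells none of the 9 genes was called between MT and WT libraries, and none of the 13755 genes tested was (0%; 444 genes, none of them a member, had an unadjusted p under 0.05 in edgeR, and DESeq2 called 19 genes and no member). All 9 estimates were below 0, with a median log2 fold change of -0.16 against -0.01 over all genes, and MT and WT libraries overlapped for each. Of all genes tested, 47.7% had an estimate above 0. Most of the 9 genes rose and fell together from library to library, so their signs are not separate results. Irf7 was at 40.5, 49.9 and 37.1 CPM in MT and 51.6, 52.2, 47.6 and 38.6 CPM in WT libraries (-0.16 ± 0.13). Ifit1 had the lowest estimate, -0.36 ± 0.30, with 7.39, 7.61 and 3.39 CPM in MT and 8.91, 8.17, 9.45 and 4.83 CPM in WT libraries. Ifit2 had the smallest SE, with 24.2, 24.7 and 25.3 CPM in MT and 27.8, 29.7, 28.4 and 24.2 CPM in WT libraries (-0.15 ± 0.08, adjusted p = 0.999).

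Within both young groups, the libraries with Ddx3y were low for most of these genes. WT replicate 4 was the lowest WT library for 8 of the 9 genes and MT replicate 3 the lowest MT library for 7. Over all genes these libraries stood apart too. The chi-square per degree of freedom of pairs with WT replicate 4 was 44.29 to 71.26, against 21.85 to 37.66 for other WT pairs. For MT replicate 3 it was 27.7 and 31.13, against 10.43. How often they were the lowest library over all genes was not counted. Isg15 was at 4.26 to 4.49 CPM in these 2 libraries and 5.72 to 6.59 CPM in the other 5, Ifit3 at 2.88 to 3.52 against 6.28 to 7.85, and Rsad2 at 23.7 to 26.4 against 31.8 to 39.9. Ifit2 (24.2 to 25.3 against 24.2 to 29.7 CPM) and Mx1 (14.6 to 15.8 against 12.97 to 18.3) overlapped between the 2 kinds of library. Without both libraries none of the 9 was called either, and the estimate of Oasl2 turned from -0.01 to 0.05. The same 2 libraries had the lowest summed plasmacytoid dendritic cell markers of their groups, 132.7 and 162.7 CPM against 195.6 to 249.4, and the lowest B cell markers, 96.5 and 117.2 CPM against 193.2 to 261.6. What part these markers or the sex-linked split had in the lower levels was not tested.

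In old Cd11b cells none of the 9 genes was called between MT and WT libraries, where 0.336% of 13398 genes tested were. In the edgeR test 1 member had an unadjusted p under 0.05, and DESeq2 called 0. Isg15 came nearest: it was at 9.35, 9.45 and 8.88 CPM in MT and 11.4, 11.5 and 11.3 CPM in WT libraries, so the groups did not overlap. Its log2 fold change was -0.31 ± 0.07, with an unadjusted p of 0.00192 and an adjusted p of 0.0917 in the edgeR test. The adjusted p ranged from 0.0315 to 0.853 over 13 alternative fits. The other 8 genes lay between -0.10 (Oasl2) and 0.20 (Mx1), with MT and WT libraries overlapping.

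WT replicate 1 weighed on this comparison. It held Oasl2 at 131.9 CPM against 76.3 and 76.7 in WT replicates 2 and 3, and Rsad2 at 46.8 against 33.1 and 32.3, while the MT libraries had Oasl2 at 91.3, 85.9 and 88.8 CPM. Without it, the estimate of Oasl2 turned from -0.10 to 0.21 and was called higher in MT (adjusted p = 0.0146), Isg15 was called lower (adjusted p = 0.0315), and the genes called among all tested rose from 45 to 1819. The remaining WT libraries of that fit are the similar replicates 2 and 3. Of 105 other interferon pathway genes tested, Ifitm1, a membrane protein that restricts virus entry, was the 1 called, at 110.7 ± 13.4 CPM in MT and 164.7 ± 1.60 CPM in WT libraries (SD, n = 3 each; -0.58 ± 0.08, adjusted p = 0.0279, edgeR). Without WT replicate 1, 16 pathway genes were called, and 0 were called without MT replicate 2, MT replicate 3, WT replicate 2 or WT replicate 3, with all 19 libraries in 1 fit or with replicates 2 and 3 summed, so the Ifitm1 call was lost in each of these. Of the 20 sensor genes 0 were called by edgeR, with 1 at an unadjusted p under 0.05.

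Among LK libraries Ifit2 and Irf7 were called lower in MT, and none of the 9 was called higher. Ifit2 was at 19.5, 19.1 and 19.4 CPM in MT and 22.6, 23.5 and 23.0 CPM in WT libraries, a log2 fold change of -0.28 ± 0.05 (adjusted p = 0.00850). Irf7 was at 10.1, 9.13 and 9.12 CPM in MT and 12.3, 10.9 and 11.8 CPM in WT libraries (-0.33 ± 0.08, adjusted p = 0.0193). MT and WT libraries did not overlap for either. However, 29.8% of 14113 genes tested were called in this comparison, 15.9% lower and 13.9% higher, and 2 of 9 is near that background.

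Rsad2 was at 7.26, 4.84 and 4.15 CPM in MT and 6.34, 5.92 and 6.42 CPM in WT libraries (-0.23 ± 0.20, adjusted p = 0.430). MT replicate 1 was the highest of the 6, and without it the change was -0.51 (adjusted p = 0.0121, edgeR). In that fit 5144 of 14315 genes tested were called, so the call alone does not set Rsad2 apart. The MT libraries left in it were the similar replicates of that group, with a chi-square per degree of freedom of 4.515. Ifit1 (0.32 ± 0.28) and Ifit3 (0.38 ± 0.35) had estimates above 0, from 35 to 76 counts and 7 to 30 counts per library, and were not called. Isg15 (-0.05 ± 0.20), Mx1 (-0.12 ± 0.13), Usp18 (0.12 ± 0.18) and Oasl2 (0.15 ± 0.22) were not called, and the median over the 9 was -0.05 against 0.02 over all genes.

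The calls of Ifit2 and Irf7 in LK cells depended on the fit: of 13 alternatives, Ifit2 was called in 10 and Irf7 in 6. With the similar replicates 2 and 3 summed into 1, the adjusted p (edgeR) was 0.186 for Ifit2 and 0.216 for Irf7. The log2 changes there were -0.26 and -0.31, and 3 genes in all were called. That fit had fewer samples, so it cannot tell whether the calls came from counting similar replicates separately. Irf7 was also lost when MT replicate 2 or 3 or WT replicate 2 or 3 was left out (adjusted p from 0.0529 to 0.0809, edgeR) and with all 19 libraries in 1 fit (0.0631), and Ifit2 when MT replicate 2 was (0.0504). LK MT libraries differed from WT libraries in some cell type markers. The neutrophil list summed to 11880 to 17010 CPM in MT and 10030 to 11680 in WT, with 12 of 12 markers listed and none at 0. The 8 monocyte markers summed to 1253 to 1357 and 1083 to 1248 CPM, and the erythroid markers, 7 of 8 listed, to 2363 to 2436 and 2657 to 2751 CPM. MT replicate 1 was near WT replicate 1 in neutrophil (11880 and 11680) and monocyte markers (1253 and 1248). The similar MT replicates 2 and 3 had neutrophil sums of 16820 and 17010. Macrophage markers overlapped, at 145.9 to 181.5 CPM in MT and 129 to 153.7 in WT. The part of these in the lower Ifit2 and Irf7 was not tested.

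**Figure D3:**
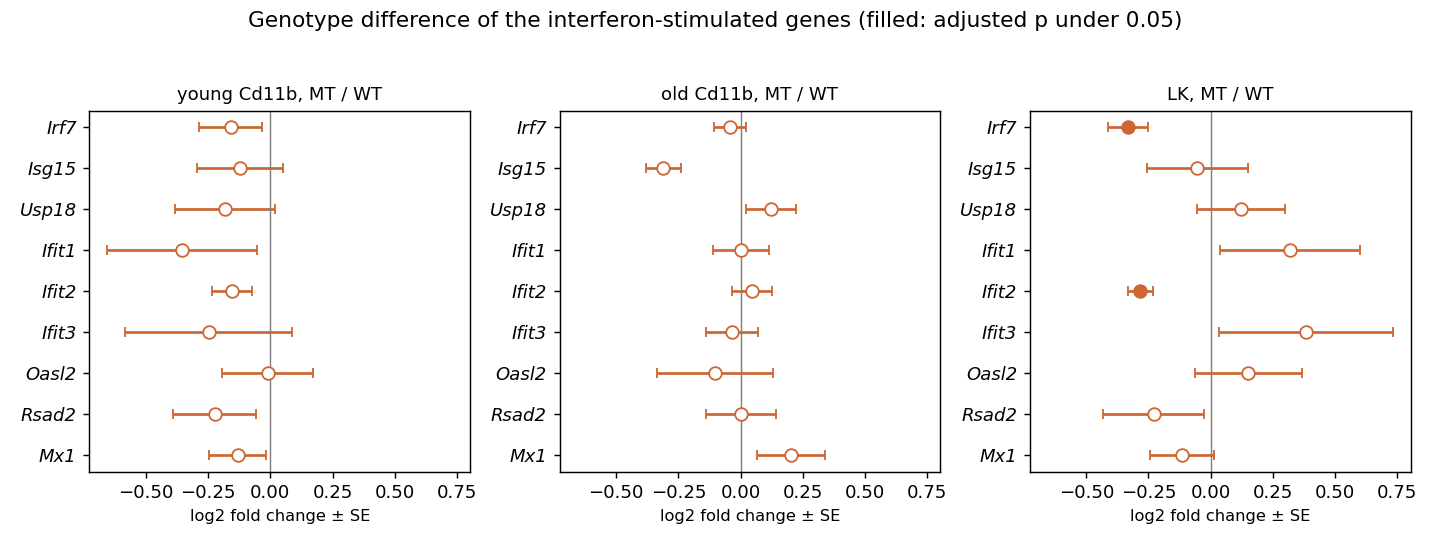
Log2 fold change of MT over WT with its SE (horizontal axis) for each gene in young Cd11b, old Cd11b and LK libraries. Filled points have an adjusted p under 0.05: Irf7 at -0.33 and Ifit2 at -0.28 in LK libraries. All 9 young estimates lie below 0, where 47.7% of all genes tested were above 0. Isg15 lies at -0.31 in old Cd11b libraries with an open point.

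Among the other interferon pathway genes in LK cells, 13 were called lower and 9 higher in MT of 105 tested, where 15.9% and 13.9% of all genes were, so the counts do not set the list apart. Slfn9, of the Schlafen family, fell furthest, at 8.20 ± 0.714 CPM in MT and 18.8 ± 2.43 CPM in WT libraries (SD, n = 3 each; -1.22 ± 0.12, adjusted p = 0.00571, edgeR). Schlafen genes have close copies, among which counting may divide reads. Znfx1 (a helicase, -0.34), Eif2ak2 (PKR, a kinase activated by double-stranded RNA, -0.38), Trim25 (a ubiquitin ligase that acts on RIG-I, -0.23) and Adar (an RNA editing enzyme, -0.19) were also lower. Ptpn6 (0.21) and Ptpn2 (0.20), phosphatases that restrain signalling, and Ifitm2 (0.23), Irf1 (0.22) and Nmi (0.24) were higher. Oasl1, a relative of Oasl2, was at 8.09, 6.72 and 6.93 CPM in MT and 9.26, 8.69 and 8.91 CPM in WT libraries (-0.33, adjusted p = 0.0358). Mx2, a relative of Mx1, was at 0.403 to 0.553 CPM in MT and 0.513 to 0.769 in WT libraries. Of the 20 sensor genes, Rnaseh2c (0.33) was higher and Adar (-0.19) and Tlr9 (-0.79) were lower. With replicates 2 and 3 summed, none of the pathway genes was called.

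The genotype difference itself was compared between ages and between cell types. Between old and young Cd11b cells no member's genotype difference was called, at a background of 0.0214% of 14024 genes, and 0 members had an unadjusted p under 0.05 in edgeR or a call in DESeq2. The estimates ran from -0.19 for Isg15 to 0.36 for Ifit1. Between LK and Cd11b cells at 18 months it was called for Ifit2 (-0.34 ± 0.09, adjusted p = 0.0250, edgeR) and Irf7 (-0.30 ± 0.10, adjusted p = 0.0497), both lower in LK. The other 7 were not called, and of 13996 genes tested 12% were called lower and 8.79% higher. Ifit2 kept its call in 11 of 18 alternative fits and Irf7 in 4 of 18. In old Cd11b cells the genotype differences of Ifit2 and Irf7 were 0.05 ± 0.08 and -0.04 ± 0.06.

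Of the 106 other pathway genes tested, 6 had a genotype difference called higher in LK than in Cd11b cells and 7 lower. Of all genes tested, 8.79% were called higher and 12% lower, so the counts do not set the list apart. Ifitm2 (0.55), Ifitm1 (0.72), Irf1 (0.34), Ifngr1 (0.20) and Ifitm3 (0.36) were among the pathway genes called higher. Slfn9 (-1.10), Ciita (-0.95), Eif2ak2 (-0.43), Znfx1 (-0.36) and Jak1 (-0.33) were among those called lower. With age, 0 of the 106 were called by edgeR or DESeq2, with 5 at an unadjusted p under 0.05 in edgeR. The smallest p-values (unadjusted, edgeR) were those of Irf1 (0.00341) and Slfn1 (0.005). In young cells 0 of 106 were called by either tool, with 3 at an unadjusted p under 0.05, and the smallest were those of Irf5 (0.0106) and Irf1 (0.0166).

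Levels of the 9 genes were set beside the TE share of each library (its TE counts for every 1000 gene counts), with no test. In young Cd11b libraries the share was 124.1, 114.9 and 150.2 in MT and 128.8, 114, 114.4 and 169.1 in WT. The mean log2 CPM of the 9 genes was 3.90, 4.06 and 3.55 in the same MT libraries and 4.18, 4.13, 4.14 and 3.59 in the WT libraries. The 2 young libraries with the highest TE share had the lowest mean levels of the interferon-stimulated genes. They are the 2 with Ddx3y, which also had the lowest summed plasmacytoid dendritic cell and B cell markers of their groups, and the part of either was not tested.

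Old Cd11b libraries had a TE share of 34.4 to 34.6 in MT and 33.4 to 36.4 in WT, and LK libraries 31.9 to 32.7 in MT and 30.2 to 32.2 in WT. MT and WT thus overlapped in the total share in each set, but not in every class of TE. Per 1000 gene counts, LK libraries had 7.84 to 8.08 LINE counts in MT and 6.79 to 7.17 in WT, and 12.8 to 13.4 SINE counts in MT and 11.5 to 12.5 in WT. LTR counts went the other way in LK, at 10.1 to 10.2 in MT and 10.5 to 11.7 in WT, and in old Cd11b libraries they were 11.06 to 11.17 in MT and 11.2 to 11.89 in WT, also without overlap. The mean log2 CPM of the 9 genes was 4.50 to 4.68 in old MT, 4.53 to 4.64 in old WT, 1.65 to 1.93 in LK MT and 1.58 to 1.94 in LK WT libraries. Replicate 1 had the highest mean in each of the 4 groups of 18 months. The young set had the higher TE share and the lower levels of most of the 9 genes next to old Cd11b libraries, and 7SK adds to that share: without it the young libraries had 102.1 to 159.9.

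**Figure D4:**
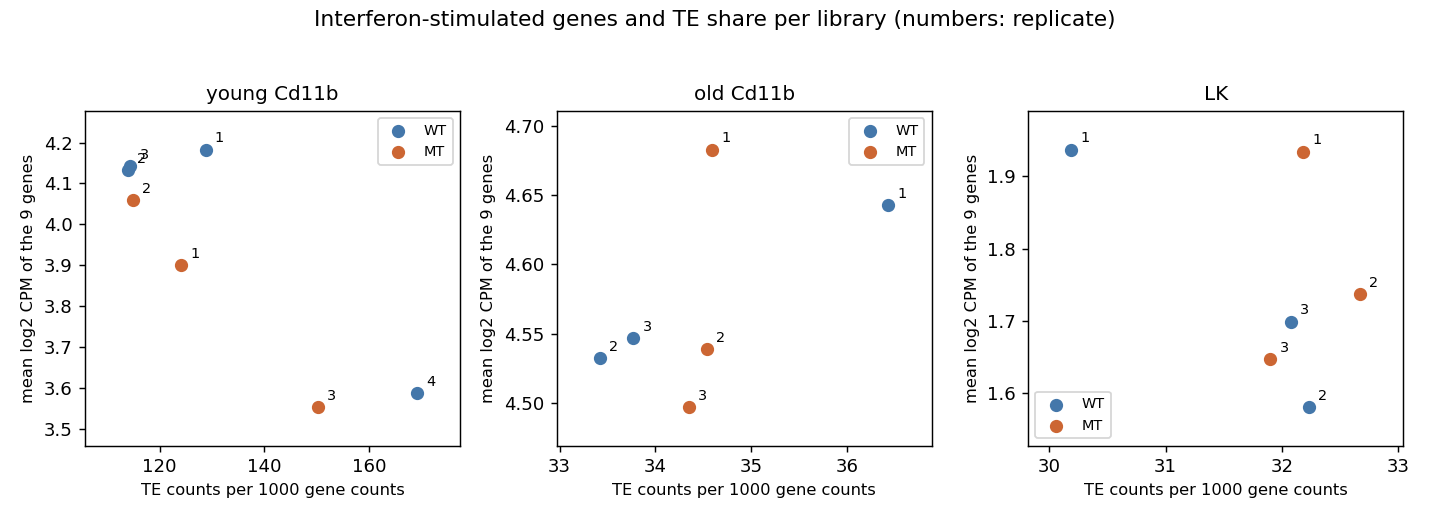
Mean log2 CPM of the 9 genes (vertical axis) against TE counts per 1000 gene counts (horizontal axis) of each library, 1 panel per set with its own scales. Numbers are replicates, blue is WT and orange MT. In the young panel WT replicate 4 and MT replicate 3 lie at the lower right, at shares of 169.1 and 150.2.

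Within groups, most of the 9 genes rose and fell together from library to library. Over 19 libraries, each gene's log2 CPM less its group mean had a Pearson correlation with the mean of the members' deviations of 0.93 for Irf7, 0.92 for Ifit1 and Usp18, 0.88 for Isg15, 0.84 for Rsad2, 0.83 for Ifit3 and 0.77 for Oasl2. Each of these genes is part of that mean. Ifit2 (0.31) and Mx1 (-0.07) did not follow it. Over the 36 pairs of genes the median correlation was 0.64, with 29 above 0. The points share their library, its depth and its mix of cells. The mean deviation was lowest in young WT replicate 4 (-0.399) and young MT replicate 3 (-0.266), the young libraries with Ddx3y. Elsewhere it ran from -0.122 to 0.211. How far the correlations, and the likeness of other genes below, rest on those 2 libraries was not tested.

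Of 12004 genes ranked, with a mean of at least 50 counts, the 10 most like the members in this measure were Gm12250 (0.96), Lgals3bp (0.95), Tgtp2 (0.94), Gbp2 (0.92), St6galnac4 (0.92), Oas1a (0.92), Eef2 (0.92), H2-K1 (0.91), C330006A16Rik (0.91) and Gbp3 (0.91). Lgals3bp, Tgtp2, Gbp2, Oas1a and Gbp3 are on the interferon pathway list.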

How the data were processed

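Gene and TE counts of 19 libraries were used. Per the submitters' processing notes the reads were handled with STAR, HTSeq and DESeq2 on build mm10; versions and parameters are not given in the sources used here. The deposited values are whole-number counts per gene, not normalized by the authors, and each set lists genes with a summed count of at least 10. Each comparison was fitted on its own libraries with edgeR 4.0.16 in R 4.3.3 (TMM factors, filterByExpr, quasi-likelihood F-test, adjusted p under 0.05), and the script was tested on simulated data. There it recovered nearly all log2 changes of 1 but missed part of those of 0.5, a first criterion that asked for both was not met, and the criterion was then set on size, false calls and recovery at 1. The genes changed in the simulation were well counted and varied little between libraries. Its recovery thus does not describe noisier members or those with few counts, such as Ifit3 in LK cells. Most genotype estimates here are below 0.5, so a gene not called may still differ. The CPM shown use 1 TMM scaling over all libraries. Correlations used log2(CPM + 0.5).

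Alternatives were RLE factors, no filter, DESeq2 1.42.0, a replicate block, 1 fit of all libraries, summed replicates 2 and 3, a length and GC trend, a sex-linked term, and each library left out. Leaving out both young Ddx3y libraries was chosen after seeing the data. The members and gene lists were chosen with earlier results of these data known. All 9 members are named, with up to 5 pathway genes per direction and comparison by adjusted p, or the 2 with the smallest unadjusted p where none was called. Over all genes, replicate numbers did not pair the libraries.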

Additional observations from a re-analysis of the deposited data

Results flagged for a closer look

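In young Cd11b WT libraries, replicate 4 lay far below the other 3 for 3 genes. Its gap to the nearest library, as a share of the range of the group on log2 CPM, was 0.873 for Ifit3, 0.834 for Oasl2 and 0.843 for Rsad2, above Dixon's 95% critical value for 4 samples. On the linear CPM scale the shares were 0.812, 0.809 and 0.814, all below that value, so the 3 flags depend on the scale. Chance would flag about 5% of groups, and the 3 genes share the library, so these are not separate events. The genotype difference differed between LK and Cd11b cells at 18 months for Ifit2, by -0.34 on the log2 scale, and for Irf7, by -0.30, in a test of the difference itself (edgeR), in which 12% of all genes were called lower and 8.79% higher. The Irf7 call was lost with RLE factors (adjusted p = 0.0614), DESeq2 (0.0526), all 19 libraries (0.268) and summed replicates 2 and 3 (0.406). The Ifit2 call was lost with all 19 libraries (0.0567) and summed replicates (0.371).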

How the results depend on the processing

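Of 927 values of single genes under alternatives, 849 kept direction and call. The 9 lower genes of LK against Cd11b cells were called under all 12. Members called changed as follows, leaving out the sex-linked term between old and young WT cells, which rested on 1 young library. In LK cells (2) there were 0 with the replicate block, 0 with replicates 2 and 3 summed, 1 with all 19 libraries, and 0 to 3 leaving out 1 library. In the genotype by cell type test (2) there were 1 with RLE factors, 1 with DESeq2, 0 with all 19 libraries, 0 with summed replicates, and 0 to 2 leaving out 1 library. In old Cd11b (0) leaving out 1 library gave 0 to 2. Pathway genes called in old Cd11b (1) were 6 with DESeq2, 0 with the block, 0 with all libraries, 0 summed and 0 to 16 leaving out 1. All genes called there were 45 in the main fit, then 506, 0, 38, 1 and 0 to 1819 in that order. In LK (22) pathway genes were 0 with the block, 13 with all libraries, 0 summed and 3 to 36 leaving out 1. All genes called there were 4206, then 3, 2988, 3 and 983 to 5569. By cell type (13) pathway genes were 0 summed and 4 to 24 leaving out 1. All genes called there were 2904, then 0 and 1129 to 4168. Pathway counts thus moved with the count of all genes called, and the ranges do not set the list apart. Under the block Ifit2 and Irf7 in LK had adjusted p-values of 0.0668 and 0.0695 (edgeR) and 3 genes in all were called, where 4206 were without it. Same-numbered libraries deviated together in no comparison as a whole, so the block is no evidence of a weaker effect. It left 2 members called by cell type, 5 with age and 9 between LK and Cd11b WT cells.

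Signs turned for estimates near 0. Oasl2 in young cells was 0.02 with the sex-linked term, 0.05 without the Ddx3y libraries and -0.25 to 0.15 leaving out 1. Ifit3 in old cells was 0.04 summed and -0.14 to 0.02 leaving out 1, where Ifit2 was -0.04 to 0.10 and Oasl2 -0.24 to 0.21. In LK, Usp18 was -0.01 with the length and GC trend removed and -0.04 to 0.20 leaving out 1, where Oasl2 was -0.13 to 0.30 and Isg15 -0.21 to 0.13. By age, Oasl2 was 0.04 with the block and -0.25 to 0.22, and Ifit3 -0.01 to 0.45. By cell type, Usp18 was 0.01 with RLE factors, 0.01 with DESeq2, 0.02 with all libraries, 0.06 summed and -0.13 to 0.11, and Oasl2 -0.07 to 0.41. Between old and young WT cells, Rsad2 was -0.08 with the block and -0.13 to 0.16, and Mx1 -0.07 to 0.15. Among these, Oasl2 in old cells without WT replicate 1 (0.21) alone was called. Ifit2 between old and young WT cells lost its call without old WT replicate 2 (0.25, adjusted p = 0.0575, edgeR). Where summing or leaving out libraries changed a call, fewer samples were fitted; for the other settings the cause was not tested. Depth limits Ifit1 and Ifit3 in LK cells most.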
